A study of Mus musculus with 4 samples.

Results

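The genes described here are 32 genes of plasma proteins made by hepatocytes, in the adult or, for Afp, mainly in the fetus, out of 21418 protein-coding genes on the autosomes. They were chosen by name, not by any measured value, although earlier results of these data were known. All 32 symbols were found in the GENCODE annotation of the mm9 mouse genome. By role they comprise 9 apolipoproteins, 6 carrier proteins, 6 proteins of clotting and clot removal, 10 protease inhibitors and related proteins, and complement C3. CTCF binding sites were counted for each gene in a window made of the gene body and 50 kb on either side. Where windows of neighbouring genes overlapped they were merged, which gave 22 loci, 6 of them with several of the genes. Together the loci held 36 of the 10113 sites listed at ZT0 and 19 of the 6799 sites listed at ZT12.

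CTCF ChIP-seq had been carried out on whole livers of male wild-type C57BL/6 mice, labelled as 8 weeks old. By the study's methods this was their age before 2 weeks in alternating light and darkness, during which they were fed without restriction. Livers were collected in 2 biological replicates per time, at the onset of the light phase (ZT0) and of the dark phase (ZT12). An antibody against CTCF pulls down the DNA that the protein occupies, and a site is a place where sequenced fragments pile up above background. Each time point has a single list of site positions covering both replicates, without heights, strands or depths, so the spread between replicates is unknown. The lists were passed through a motif search and hold far fewer sites than the study describes, for a reason not given. A site called absent, shared or limited to ZT0 is therefore so in the deposited lists, and may not be so in a fuller set. A place missing from a list may hold a site under the calling threshold, and the cell types of the liver are not resolved in it.

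CTCF is a zinc finger protein that binds a long, directional DNA motif and, together with cohesin, holds the ends of chromatin loops. Loop ends carry preferentially motifs that point towards each other, and a bound site between an enhancer and a promoter can separate them. Hepatocytes devote a large part of their transcription to secreted proteins, and many of these genes lie in clusters of related genes, such as those of albumin, fibrinogen, the apolipoproteins and the serpins. For such genes, the questions asked of the lists are where the nearest sites lie, which genes share a stretch free of sites, and whether the same places are listed at both times.

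At ZT0, 24 of the 32 genes had a site in their window (75%, 95% Wilson confidence interval 57.9 to 86.7%), and 60.2% of all autosomal protein-coding genes did. At ZT12 the count was 14 of 32 (43.8%, interval 28.2 to 60.7%), and 49.9% of all genes. The share of plasma protein genes was the higher one in the ZT0 list, which is the longer list, and the lower one in the ZT12 list, but with this window the value for all genes lay within the interval in both lists. Other windows gave other results. With 50 kb around the gene start, 23 genes had a ZT0 site (71.9%, interval 54.6 to 84.4%, all genes 52.7%) and 13 a ZT12 site (40.6%, interval 25.5 to 57.7%, all genes 42.6%). With 10 kb on either side of the gene body, 13 had a ZT0 site (40.6%, interval 25.5 to 57.7%, all genes 34.8%) and 3 a ZT12 site (9.38%, interval 3.24 to 24.2%, all genes 26.2%). With 100 kb, 24 had a ZT0 site (75%, all genes 71.4%) and 21 a ZT12 site (65.6%, all genes 62.8%). The value for all genes thus lay outside the interval at ZT0 with the window around the start and at ZT12 with the narrow window. Neighbouring genes share sites and are not independent of each other, and these intervals cover counting error only.

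The 32 genes fell into 4 classes by the lists that had a site in the window. Both lists had one for 13 genes, and for 47.3% of all genes. The ZT0 list alone had one for 11 genes (34.4%, interval 20.4 to 51.7%), namely Alb, Afp, Hpx, Apoa4, Apoe, Apoc1, Apoh, Serpina3k, Itih1, Itih3 and Itih4, whereas 12.9% of all genes were in that class. The ZT12 list alone had one for Serpina1b, 1 gene of 32, against 2.68% of all genes. Neither list had one for 7 genes, Serpinc1, F2, Serpina1a, Ahsg, Fetub, Kng1 and Ttr, against 37.1% of all genes. With 10 kb on either side, the class with a site at ZT0 only held 10 of the 32 genes (interval 17.95 to 48.6%) and 11.1% of all genes. With 50 kb around the gene start it held 11 of them and 12.5% of all genes, and with 100 kb on either side 4 of them (interval 4.97 to 28.1%) and 11.01% of all genes. Counted by locus, 9 of the 22 loci had sites in both lists, 6 at ZT0 only, 1 at ZT12 only and 6 in neither.

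A ZT0 site within 1 kb of the gene start was listed for 1 gene, Apob, of 32 (interval 0.554 to 15.7%), and for 7.26% of all genes. No ZT12 site was listed within 1 kb of any of the 32 starts (interval 0 to 10.7%), and 4.86% of all genes had one. The values for all genes lie within these intervals. Within 10 kb, a ZT0 site was listed for 9 of the genes (28.1%, interval 15.6 to 45.4%) and for 20.5% of all genes, and a ZT12 site for 2 of them (6.25%, interval 1.73 to 20.1%) and for 14.7% of all genes. The 9 genes with a ZT0 site so close were Apob, Apoa1, Itih4, Apoe, Hpx, Apoc3, Fgg, Plg and Apoc1, and the pair at ZT12 was Fgg and Plg.

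The median distance from the gene start to the nearest ZT0 site was 25.3 kb over the 32 genes (95% interval of the median 10.1 to 48.6 kb) and 44.7 kb over all autosomal protein-coding genes. With the ZT0 list cut to its 6799 widest sites these medians were 30.1 and 68.6 kb. For the nearest ZT12 site the medians were 54.7 kb (interval 41.9 to 150.2 kb) and 69.7 kb. In both lists the genes ranged widely, from 0.969 kb at Apob to 327 kb at Ahsg at ZT0, and from 5.31 kb at Fgg to 493 kb at Kng1 at ZT12. For 12 genes the nearest ZT0 and ZT12 sites overlapped each other (37.5%, interval 22.9 to 54.7%), and for 50.2% of all genes. Of the other 20 genes, 18 had the nearer site in the ZT0 list (interval 69.9 to 97.2%, all genes 78.4%), and 2, Serpina1b and C3, in the ZT12 list. The nearest ZT0 site was also listed at ZT12 for 14 of the 32 genes (43.8%, interval 28.2 to 60.7%) and for 56.0% of all genes. The nearest ZT12 site was also listed at ZT0 for 30 genes (93.8%, interval 79.9 to 98.3%) and for 82.7% of all genes.

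**Figure D1:**
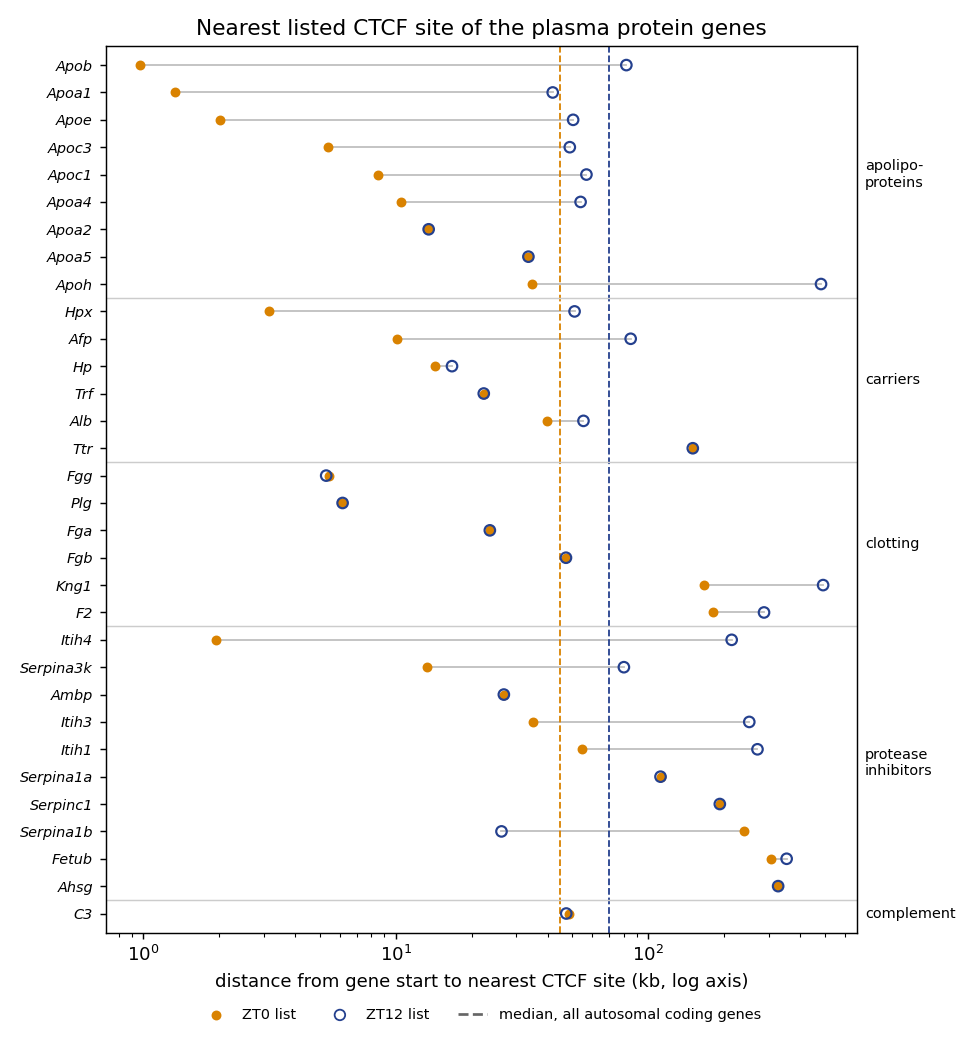
Distance in kb, on a log axis, from the start of each of the 32 genes to the nearest CTCF site of the ZT0 list (filled circles) and of the ZT12 list (open circles), grouped by role, with dashed lines at the medians over all autosomal protein-coding genes (44.7 kb at ZT0 and 69.7 kb at ZT12). For 12 genes the circles mark overlapping sites, and for most of the apolipoprotein genes the ZT0 circle lies far to the left of the ZT12 circle.

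All 9 apolipoprotein genes, which lie in 5 loci, had a ZT0 site in their window, and 5 had a ZT12 site (all genes 60.2% and 49.9%). Of 8 other apolipoprotein genes outside the set, 6 and 2 did. In the ZT0 list the sites closest to a gene start were those of Apob and Apoa1, whereas in the ZT12 list they were those of Fgg and Plg. Apolipoproteins are the protein part of lipoprotein particles, which carry cholesterol and triglycerides through the blood. Apob encodes the large structural protein of very low density lipoproteins. Its ZT0 site at chr12:7985423-7985674 lay in an intron 0.969 kb downstream of the gene start, and no ZT12 site overlapped it. A second ZT0 site, at chr12:8066381-8066737 and 81.9 kb from the start, lay beyond the far end of the gene and was also listed at ZT12. On the upstream side the gene faces a very long stretch without sites, with the next ZT0 site 2517 kb outside the window. Apob is the only protein-coding gene with a start in its own window.

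Apoa1, Apoc3, Apoa4 and Apoa5 lie side by side on chromosome 9. Apoa1 encodes the main protein of high density lipoprotein, Apoc3 an inhibitor of lipoprotein lipase, Apoa4 an apolipoprotein of triglyceride-rich particles and Apoa5 an activator of triglyceride clearance. The merged window held 6 ZT0 sites and 3 ZT12 sites, 4.19 and 2.09 per 100 kb. All 3 ZT12 sites were shared: the site at chr9:45994571-45994789 in an intron of Sik3, the intergenic one at chr9:46110264-46110495 and the one at chr9:46122667-46122990 in an intron of 4931429L15Rik. They lay outside the gene cluster, on both sides of it. Of the 3 sites listed at ZT0 only, 2 were in introns of Sik3, at chr9:45993370-45993693 and chr9:45999799-46000054. The remaining one, at chr9:46038003-46038319, lay in a coding exon of Apoa1, 1.34 kb from its start, between the starts of Apoa1 and Apoc3. With the ZT12 list, all 4 genes shared a stretch of 115.7 kb between neighbouring sites. With the ZT0 list the exon site divided the cluster, leaving Apoa1 alone in 38.2 kb and Apoc3, Apoa4 and Apoa5 in 72.2 kb.

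Apoc1 and Apoe lie next to each other on chromosome 7. Apoe encodes the ligand by which remnant particles are taken up by the liver, and Apoc1 a small apolipoprotein that slows this uptake. Their merged window held 3 sites at ZT0, none of them shared, and no site at ZT12. The site nearest a start, at chr7:20286535-20286824, lay 2.02 kb upstream of Apoe in an annotated exon of Tomm40, outside coding sequence, and a second one, at chr7:20298624-20298939, lay 14.1 kb upstream, also in an exon of Tomm40. The remaining one, at chr7:20254319-20254582, was intergenic and 23.4 kb downstream of the Apoc1 start. These sites enclosed Apoc4, Apoc2, Apoc1 and Apoe in 32.2 kb, and the motifs at the ends of this stretch pointed towards each other. A site shared by both lists lay just beyond the window, 0.364 kb outside it at ZT0 and 0.441 kb outside it at ZT12, so the absence of a ZT12 site there depends on where the window ends.

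Apoa2, which encodes the second most abundant protein of high density lipoprotein, had one of the densest windows, with 4 ZT0 sites and 3 ZT12 sites. The shared sites at chr1:173186256-173186637 and chr1:173187429-173187732 lay in a coding exon and an intron of Adamts4, a gene of a protease that cleaves aggrecan, with their best motif matches on the minus strand. Apoh, which encodes a phospholipid-binding glycoprotein also called beta-2-glycoprotein, had 1 ZT0 site, at chr11:108239490-108239746 in an intron 34.8 kb downstream of its start. At ZT12 its nearest site was 484 kb away.

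The carrier genes differed strongly from one another. Alb encodes albumin, the main carrier of fatty acids and the most abundant plasma protein, and Afp encodes alpha-fetoprotein, its fetal counterpart, which is normally silent in adult liver. The only site in their merged window was listed at ZT0 alone, at chr5:90929827-90930147 in an intron of Afp, 10.1 kb downstream of its start and 39.9 kb from that of Alb. No site of either list lay between the starts of Alb and Afp, which are 29.8 kb apart. With the ZT0 list both starts shared a stretch of 95.6 kb, and with the ZT12 list one of 183.7 kb, which also held Afm and 5830473C10Rik. The left end of the stretch, 5.36 kb outside the window, and the right end at ZT12 were sites found in both lists, and in either list the motifs at the ends pointed towards each other.

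Hp and Hpx encode haptoglobin and hemopexin, which bind free haemoglobin and haem. Hp lay between shared sites, one at chr8:112060642-112060891 in an intron of Pmfbp1, 42.2 kb downstream, and one at chr8:112119565-112120251 at the start of Dhodh, 16.5 kb upstream. This second site was, at 687 bp, the widest ZT0 site in any of the 22 loci, and its ZT12 counterpart of 571 bp was the widest at ZT12. A further ZT0 site, at chr8:112117337-112117620 and 14.3 kb upstream, had no ZT12 counterpart. Hpx had a single ZT0 site, at chr7:112751780-112752187, only 3.15 kb upstream of its start and not listed at ZT12. A shared site lay 1.12 kb outside the Hpx window at ZT0 and 1.11 kb outside it at ZT12.

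Trf encodes transferrin, which carries iron. A shared site, at chr9:103110164-103110491 at ZT0 and chr9:103110117-103110447 at ZT12, lay in an intron of the gene, 22.3 kb downstream of its start at either time. Trf was the only one of the 32 genes with a ZT12 site in its body (interval 0.554 to 15.7%, all genes 11.6%), and 7 of them had a ZT0 site there (21.9%, interval 11.02 to 38.8%, all genes 16.7%). A ZT0-only site at chr9:103077222-103077453 lay in an intron of Rab6b. The annotation has a second, longer entry named Trf, and adding it left the numbers of distinct sites in the loci at 36 and 19. Ttr, which encodes the carrier of thyroid hormone and of retinol-binding protein, had no site in its window. Its nearest site, 150.2 kb downstream, was found in both lists, and on the other side the site-free stretch reached 4403 kb beyond the window at ZT0 and 5475 kb beyond it at ZT12.

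Among the clotting genes, the fibrinogen cluster kept the same sites at both times. Fgg, Fga and Fgb encode the gamma, alpha and beta chains of fibrinogen, the soluble precursor of the fibrin clot, which are assembled in fixed proportion. The merged window held 2 sites, both intergenic, both on the Fgg side and both shared. The ZT0 sites were at chr3:82799297-82799697 and chr3:82806072-82806353, 12.1 and 5.43 kb upstream of Fgg. No site of either list lay between the gene starts, so all 3 genes shared one stretch, of 271.7 kb at ZT0 and 107.9 kb at ZT12. The shorter stretch at ZT12 ended at a site that was not listed at ZT0, 10.4 kb outside the window.

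Plg encodes plasminogen, the precursor of the protease that dissolves fibrin. Its window held 4 ZT0 sites and 1 ZT12 site. The shared one, at chr17:12564963-12565325 at ZT0, was intergenic and 6.15 kb upstream of the start. The ZT0-only sites lay at chr17:12560228-12560588, 10.9 kb upstream, at chr17:12609070-12609407 in an intron near the end of Plg, and at chr17:12614110-12614343 in an exon of Slc22a3. With the ZT0 list Plg was thereby the only coding gene start in a stretch of 44.1 kb, with motifs pointing away from each other at the ends, and at ZT12 the stretch was 162.6 kb and also held Slc22a3. The other clotting genes were far from any site. F2 encodes prothrombin and Kng1 kininogen, and their nearest ZT0 sites were 180.2 and 166.8 kb away. At ZT12 these distances were 287.7 and 493 kb.

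**Figure D2:**
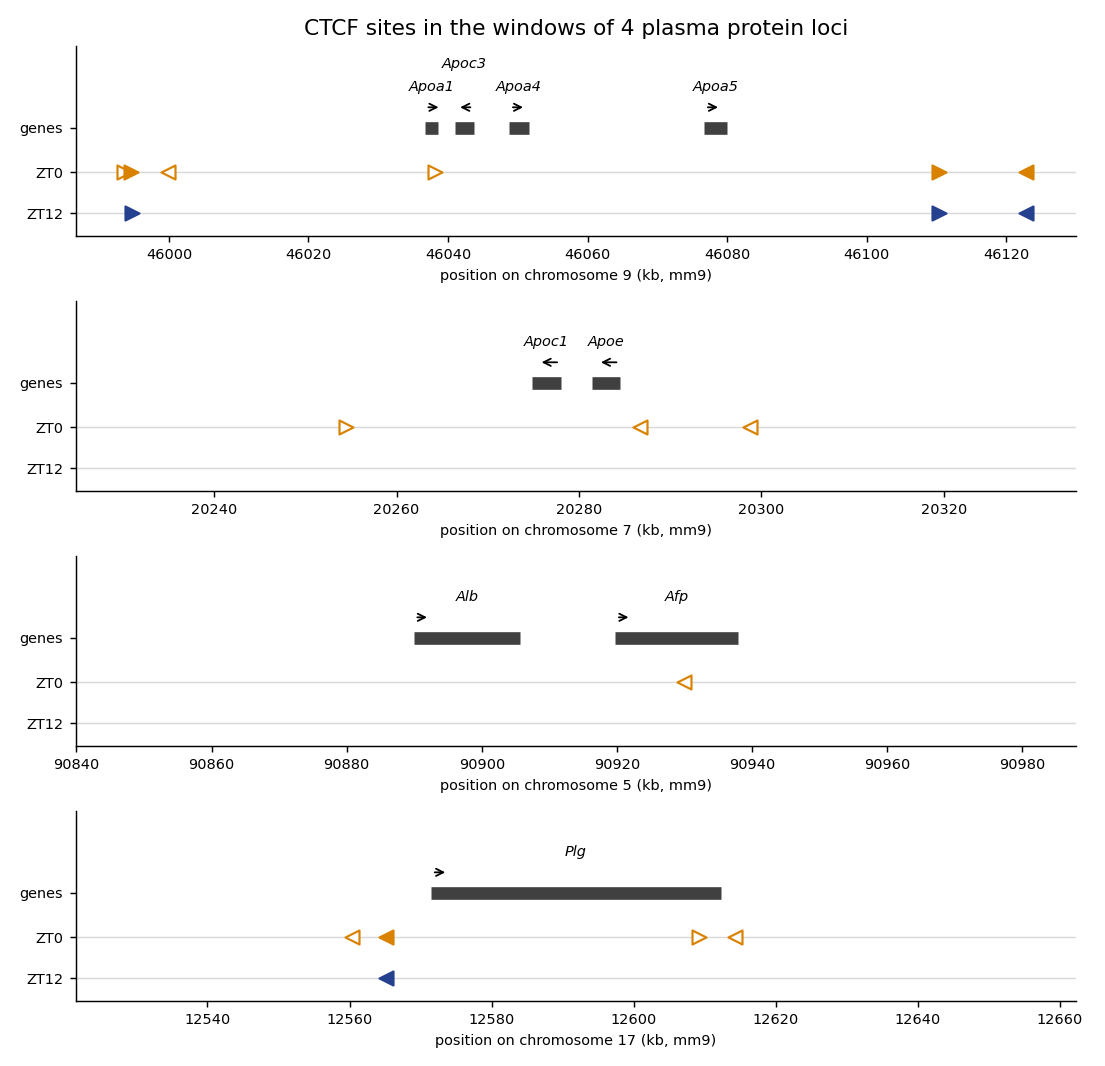
Positions in kb (mm9) of the CTCF sites in the windows of the Apoa1 cluster, Apoc1 and Apoe, Alb and Afp, and Plg. Dark bars are the gene bodies with an arrow in the direction of transcription, triangles are sites pointing along the strand of their best motif match, and filled triangles are shared by the ZT0 and ZT12 lists; the Apoc1 and Apoe window and the Alb and Afp window hold no ZT12 site.

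Among the protease inhibitors, 5 of 10 genes had a ZT0 site in the window and 2 had a ZT12 site (all genes 60.2% and 49.9%). Of 16 other inhibitor genes outside the set, 10 and 9 did. Itih1, Itih3 and Itih4 encode heavy chains of the inter-alpha-trypsin inhibitor family, which bind hyaluronan or, for Itih4, act in the acute phase response. Their locus held 2 ZT0-only sites, at chr14:31680175-31680557 near a start of Tmem110 and at chr14:31701596-31701882 in an intron of Itih4. The second lay 1.93 kb downstream of the Itih4 start and separated it from the starts of Itih3 and Itih1. It left Itih4 in the shortest stretch among the 32 genes at ZT0, 21.4 kb. At ZT12, where neither site was listed and the ends lay elsewhere, all 3 genes shared 562 kb. Ambp encodes the precursor of alpha-1-microglobulin and bikunin, the light chain of the same inhibitor. It lay between shared sites, at chr4:62779855-62780259 in an intron of Zfp618 and at chr4:62842611-62842955, 26.8 kb upstream. The stretch between them was 62.7 kb at ZT0 and 62.6 kb at ZT12.

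Ahsg and Fetub encode fetuin A and fetuin B, cystatin-like proteins that bind calcium phosphate and protect the zona pellucida from premature hardening, respectively. No site lay in their window, and both shared one stretch with Kng1, of 660.1 kb at ZT0 and 1389 kb at ZT12. The ZT0 stretch held the starts of 13 protein-coding genes, among them the plasma protein genes Hrg and Kng2. Serpinc1, which encodes antithrombin, also lacked sites, and it lay in a stretch of 427.5 kb that was bounded by shared sites with motifs pointing towards each other. Serpina1a and Serpina1b are copies of the gene of alpha-1-antitrypsin and Serpina3k is a gene of the antichymotrypsin family, all on chromosome 12. No ZT0 site lay between the starts of Serpina1a and Serpina1b, which shared 485 kb. The ZT12 list had a site 26.2 kb downstream of Serpina1b, at chr12:104949911-104950122, that was not listed at ZT0. Serpina3k had a ZT0-only site at chr12:105590039-105590377, 13.3 kb downstream. Reads that map equally well to several near-identical copies were removed before peaks were called, so an empty stretch in the serpin clusters may hold sequence in which no site could be found.

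C3, the central component of complement, lay between shared sites of its window. At ZT0 they were at chr17:57306503-57306802, 60.8 kb downstream of the gene start, and at chr17:57416180-57416613, 48.6 kb upstream. A further site, at chr17:57319957-57320182, was listed at ZT12 only and lay 47.4 kb downstream of the start. It reduced the stretch around the C3 start from 109.7 kb at ZT0 to 96.4 kb at ZT12. The fibrinogen genes and Serpina1a with Serpina1b were the others whose stretch ended at a ZT12-only site and was shorter at ZT12.

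Over the distinct sites of the 22 loci, 17 of 36 listed at ZT0 were shared (47.2%, interval 31.99 to 63.0%), and in the windows of all autosomal protein-coding genes 57.1% were. From the ZT12 side, 17 of 19 were shared (89.5%, interval 68.6 to 97.1%), and 84.6% in the windows of all genes. In either direction the value for all genes lay within the interval of the plasma protein loci. A shared ZT0 site was in the window of 13 of the 32 genes, and of 45.5% of all genes. The midpoints of the sites in a shared pair lay a median of 45.5 bp apart and at most 162.0 bp. Site density was 1.30 per 100 kb at ZT0 and 0.685 at ZT12, compared with 0.594 and 0.402 in the windows of all genes. These densities divide the sites by the length of the merged windows, so long windows weigh more than short ones. Counted by gene, as given above, the share with a site was above that of all genes at ZT0 but below it at ZT12. No interval was calculated for the densities, so their difference was not assessed.

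The sites closest to the gene starts were mostly listed at ZT0 only, a split examined after the values had been seen. Of the 7 ZT0 sites within 10 kb of the start of one of the genes, 2 were shared, those near Fgg and Plg (28.6%, interval 8.22 to 64.1%). Of the 29 sites beyond 10 kb, 15 were shared (51.7%, interval 34.4 to 68.6%). Around all coding gene starts the order was the opposite, with 60.0% of the sites within 10 kb shared and 55.0% of those farther away. The intervals for the plasma protein genes overlap, and each holds the value for all coding gene starts at the same distance. With 7 sites a difference was not detectable at this number. The ZT0 list is the longer one, and its sites limited to ZT0 cannot be told apart from sites that fell under the threshold at ZT12. With the ZT0 list cut to its 6799 widest sites, 23 of the 32 genes still had a ZT0 site (71.9%, interval 54.6 to 84.4%). Of all genes 49.98% had one, a value below this interval. Of the 28 remaining ZT0 sites in the loci, 53.6% were shared, compared with 67.3% in the windows of all genes. No interval was calculated for this share of 28 sites, so the difference was not assessed.

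The stretches without sites were described by the distance between the nearest site midpoints on either side of each gene start. At ZT0 the median was 266.7 kb over the 32 genes (interval 72.2 to 383.6 kb) and 247.4 kb over all genes. With the ZT0 list cut to its 6799 widest sites, the order was the opposite, with 271.7 kb over the 32 genes and 385.5 kb over all genes. At ZT12 the median was 183.7 kb (interval 115.7 to 562 kb) and 379.7 kb. Clusters weigh heavily in these medians, since genes that share a stretch count it once each. The 32 genes lay in 22 different stretches at ZT0 and in 20 at ZT12, with medians of 194.6 and 225 kb over the stretches, and those holding any coding gene had medians of 115.5 and 158.7 kb. Within the clusters, 8 of 10 pairs of neighbouring genes had no ZT0 site between their starts (interval 49.0 to 94.3%), and all 10 had no ZT12 site (interval 72.2 to 100%). Of 8166 pairs of adjacent coding gene starts at the same range of distances, 5.06 to 37.3 kb, 74.4% had no ZT0 site between them and 81.3% no ZT12 site, values within these intervals. The exceptions at ZT0 were Apoa1 with Apoc3 and Itih4 with Itih3. Motifs at the ends of a stretch pointed towards each other in 6 of the 22 stretches at ZT0 (27.3%) and in 6 of 20 at ZT12 (30.0%), and around all coding genes in 27.1% and 26.6%.

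The windows of these genes were close to those of other genes in sequence and gene content. Their median GC content was 46.3%, that of all coding gene windows 44.5%, and the median number of coding gene starts was 4 and 3. The median gene length was 10.5 kb (interval 7.26 to 15.7 kb), and that of all genes, 15.5 kb, lay within the interval. Of the 36 ZT0 sites, 13 lay in introns, 12 between genes, 6 within 1 kb of a transcription start and 5 in other exons. These were 36.1% in introns, 33.3% between genes and 13.9% in exons, compared with 33.2%, 39.0% and 5.94% in the windows of all genes. At ZT12, 10 of 19 lay between genes and 7 in introns, with 1 at a transcription start and 1 in an exon. These were 52.6% between genes, 36.8% in introns and 5.26% in exons, compared with 40.4%, 32.3% and 5.40% in the windows of all genes. In these loci 16.7% of the sites at ZT0 and 5.26% at ZT12 were at a transcription start, and in the windows of all genes 21.8% were, at either time.

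The sites were searched on both strands with a 19 bp weight matrix learned from the listed sites of other chromosomes, whose most frequent bases read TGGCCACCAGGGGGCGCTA. A match was counted from the score that positions of flanking sequence reach with a frequency of 0.0001. Of the 36 ZT0 sites in the loci, 34 held a match, and all 19 ZT12 sites did. No such share is given here for the sites of all genes, so these counts describe the loci only. The lists had been passed through a motif search, so matches in sites follow in part from how the lists were made. The 2 ZT0 sites without a match were the one in Itih4 and the one near Serpina3k, both ZT0-only. In each of the 17 shared ZT0 sites the best match was at the same bases as in the ZT12 site. The median score was 17.9 in the shared ZT0 sites and 17.9 in the ZT0-only sites, and the median width was 352.0 bp and 316.0 bp.

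Most matches in the loci were not in a listed site. Of 410 matches, 36 lay in a ZT0 site (8.78%, interval 6.41 to 11.9%) and 19 in a ZT12 site (4.63%, interval 2.99 to 7.12%), compared with 5.03% and 3.46% in the windows of all genes. Over the merged windows, matches were slightly denser in the loci, at 14.8 per 100 kb compared with 12.5, values without an interval. At a stricter score, which the best match of 1% of flanking sequences reaches, 23 of 61 matches lay in a ZT0 site (37.7%, interval 26.6 to 50.3%) and 12 in a ZT12 site (19.7%, interval 11.6 to 31.3%), compared with 24.4% and 17.2%. F2, Serpinc1 and Ttr had strict matches, 3 at F2 and 1 each at Serpinc1 and Ttr. Their windows held no site, so none of these matches could lie in one. Among loci with ZT0 sites the part of strict matches in such a site varied. Both strict matches at Apob and the only 1 at Alb and Afp lay in a ZT0 site. At Plg 2 of 6 did, at Trf 2 of 7, and at the fibrinogen genes 0 of 2.

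The sequences of the sites that come nearest to the gene starts are shown because they include all 5 ZT0-only sites within 10 kb of a start. Each is the best match, in capitals, of the site nearest to a gene start in loci where that distance is at most 20 kb, with 10 bases on either side, and 1 locus that meets this rule is not shown. Sequences are read 5′ to 3′ on the strand of the motif in mm9. Coordinates are those of the capitals. The sequences of Fgg and Plg are from shared sites, the others from sites listed at ZT0 only, and those of Serpina3k and Itih4 score under the threshold.
Fgg, chr3:82806317-82806335, plus strand: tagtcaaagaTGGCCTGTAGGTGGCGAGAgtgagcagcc
Afp, chr5:90929950-90929968, minus strand: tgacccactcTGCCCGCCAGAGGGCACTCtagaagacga
Apoe, chr7:20286606-20286624, minus strand: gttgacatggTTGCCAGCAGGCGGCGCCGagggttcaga
Hpx, chr7:112751937-112751955, minus strand: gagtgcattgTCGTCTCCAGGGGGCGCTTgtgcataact
Hp, chr8:112117437-112117455, minus strand: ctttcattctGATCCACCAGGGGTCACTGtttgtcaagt
Apoa1, chr9:46038104-46038122, plus strand: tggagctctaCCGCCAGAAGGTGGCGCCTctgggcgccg
Apob, chr12:7985536-7985554, minus strand: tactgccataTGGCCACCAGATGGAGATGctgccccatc
Serpina3k, chr12:105590210-105590228, plus strand: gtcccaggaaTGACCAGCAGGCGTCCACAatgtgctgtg
Itih4, chr14:31701694-31701712, plus strand: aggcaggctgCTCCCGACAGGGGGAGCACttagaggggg
Plg, chr17:12565092-12565110, minus strand: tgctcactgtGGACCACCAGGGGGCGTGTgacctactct

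The 8 sequences above the threshold keep the G-rich centre of the motif to different degrees. The scores run from 15.2 at Hpx to 19.7 at Afp among them, and are 9.65 at Itih4 and 6.74 at Serpina3k. The Afp site, the one in the exon of Apoa1, the one upstream of Apoe and the one in Apob all pass the stricter score, although none was listed at ZT12. Of the sequences shown, those from the shared sites near Fgg and Plg, with scores of 16.5 and 15.3, do not pass it, and those of Hp and Hpx, from sites listed at ZT0 only, do not either. Over all ZT0 sites of the loci, 12 of 17 shared and 11 of 19 ZT0-only sites pass it. These counts also stand without a share over all listed sites and describe the loci only.

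A further 72 genes of plasma proteins, among them other carriers, clotting factors, serpins, complement components and acute phase proteins, were counted in the same way. A ZT0 site was in the window of 47 of them (65.3%, interval 53.8 to 75.2%, all genes 60.2%) and a ZT12 site in that of 35 (48.6%, interval 37.4 to 59.9%, all genes 49.9%). None had a site of either list within 1 kb of its start, which for 72 genes gives an interval of 0 to 5.07%. The value for all genes lies above this interval at ZT0 (7.26%) and within it at ZT12 (4.86%). Within 10 kb, a ZT0 site was listed for 8 of the 72 genes (11.1%, interval 5.74 to 20.4%), compared with 28.1% of the 32 genes and 20.5% of all genes. A ZT12 site was listed for 7 (9.72%, interval 4.79 to 18.7%), compared with 6.25% and 14.7%. The median distance to the nearest site was 36.4 kb at ZT0 and 61.9 kb at ZT12. For 43 of the 72 genes the nearest sites did not overlap. For 30 of these the ZT0 site was closer (69.8%, interval 54.9 to 81.4%, all genes 78.4%). The nearest ZT12 site was also listed at ZT0 for 55 of the 72 genes (76.4%, interval 65.4 to 84.7%, all genes 82.7%). A ZT0 site lay in the body of 3 genes (4.17%, interval 1.43 to 11.5%, all genes 16.7%). A ZT12 site did so for 2 (2.78%, all genes 11.6%). Of the 77 ZT0 sites in the windows of the 72 genes, 49 were shared (63.6%, interval 52.5 to 73.5%). Of the 56 ZT12 sites there, 49 were (87.5%, interval 76.4 to 93.8%). The windows of 12 of the 72 genes held a ZT0 site and no ZT12 site (16.7%, interval 9.80 to 26.9%, all genes 12.9%). With 10 kb on either side 4 did (5.56%, interval 2.18 to 13.4%), compared with 10 of the 32 genes and 11.1% of all genes. Site density in the merged windows of the 72 genes was 1.00 per 100 kb at ZT0 and 0.729 at ZT12. At ZT12 this was above the density of the 22 loci and at ZT0 below it, again without an interval. Matches numbered 14.5 per 100 kb, and of the strict ones 32.5% lay in a ZT0 site and 24.5% in a ZT12 site. Some of the 72 genes are neighbours of the 32 genes and share their windows.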

How the data were processed

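According to the labels and the study's methods, the authors mapped reads to NCBIM37/mm9 with Bowtie2, discarded reads of low mapping quality (samtools) and duplicates (Picard), and ran MACS2 with its defaults. The deposited lists, labelled as the FIMO-searched peaks of both replicates, hold positions only. How the replicates were combined is not given in the sources used here. From these positions, sites were assigned to genes with the GENCODE annotation of mm9, a site counting as shared if it overlapped the other list by at least 1 bp. Distance runs from the 5′ end of the gene to the nearest edge of a site. For a symbol with 2 entries, the older Ensembl gene was used. The weight matrix was learned on even chromosomes for odd ones and the reverse, starting from the most enriched 12-mer. All 32 genes are named, with the sites in their windows and the sequence nearest a start where within 20 kb, except at 1 neighbouring gene that is not reported here; other plasma protein genes were to be named where a site lies within 1 kb of the start, but none had one, and those named are neighbours of the 32 genes in a stretch without sites. The members and lists were chosen with earlier results of these data known. No test was made, since each time point has 1 list. The overlap and motif code was tested on simulated sites. Python 3.11.15, pandas 2.3.3, NumPy 2.4.6, statsmodels 0.14.6, SciPy 1.17.1, numba 0.67.0, pysam 0.24.0, samtools 1.23.1 and Matplotlib 3.10.9 were used.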

Additional observations from a re-analysis of the deposited data

How the results depend on the processing

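Of 34 recalculated values for the 32 genes, 24 stayed within the margin of the reported value, and 10 did not. The margin was a 1.5-fold difference for counts and the 95% interval for shares and medians. With 10 kb on either side of the gene body, 13 genes had a ZT0 site and 3 a ZT12 site, compared with 34.8% and 26.2% of all genes. The distinct sites fell to 13 and 3, and the shared part to 23.1% at ZT0, while it was 100% at ZT12. With 100 kb there were 55 and 32 distinct sites. The narrower and the wider window hold fewer and more sites by construction. The stricter motif score gave 37.7% of matches in a ZT0 site and 19.7% in a ZT12 site. Windows of 50 kb around the gene start, placement by midpoint, 50% reciprocal overlap, a gap of up to 500 bp, all transcript starts and the widest ZT0 sites only kept the values recalculated with them within the margin, as did joining both annotation entries of Trf, chosen after seeing the data. The margin does not cover the values for all genes. With the widest ZT0 sites their median stretch rose from 247.4 to 385.5 kb. Their median distance to the nearest ZT0 site rose from 44.7 to 68.6 kb, and that of the 32 genes from 25.3 to 30.1 kb. No paired analysis was possible because each list merges the replicates, and no replicate could be left out for the same reason. Depth is unknown.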
